A study of Mus musculus with 82 samples.

Results

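Nascent transcription was followed on 9 genes of the Nodal and BMP pathways in V6.5 mouse embryonic stem (ES) cells, out of 24755 gene spans of the curated RefSeq annotation. They are Nodal, Lefty1, Lefty2, Bmp4, Id1, Id2, Id3, Smad7 and Skil. The genes were chosen by name, with earlier results of these data known, and all 9 had enough reads to be tested between assays. Nodal, a ligand of the TGF-β family, signals through activin receptors and SMAD2/3 and switches on its own gene together with those of its secreted inhibitors Lefty1 and Lefty2. BMP ligands such as Bmp4 signal through SMAD1/5/9 and switch on the Id genes, which encode proteins that bind E-box transcription factors and keep them off DNA. Both branches induce Smad7, an inhibitory SMAD that blocks receptor signalling, and SKIL (SnoN) is a repressor that binds SMAD complexes. In ES cells grown with serum and leukaemia inhibitory factor, Id genes are known for holding back neural differentiation.

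All libraries came from this 1 untreated ES cell line, derived from a C57BL/6 by 129/sv embryo and cultured on gelatin in medium with fetal bovine serum and leukaemia inhibitory factor. The groups are defined by the assay. In each of them engaged RNA polymerases were allowed to add 1 propargyl nucleotide in a nuclear run-on. The labelled RNA was then joined by click chemistry to a DNA adaptor, which in inAGTuC and scGRO–seq carried a barcode of the well. AGTuC, with 2 libraries of 1 experiment (Exp125c), was run on cell populations with a high concentration of the detergent sarkosyl. inAGTuC, with 4 libraries (Exp208_c12, Exp208_c14, Exp234_c11 and Exp261_c16), was run on intact nuclei with little detergent and many nuclei per well. scGRO–seq used the same low detergent with 1 nucleus per well, and its 2518 kept cells were summed into 10 batches. These are a part of the deposited scGRO–seq batches. Libraries of the others entered only the search for reads shared between libraries, and the values below do not cover them. AGTuC came from an experiment of its own, so that assay and experiment cannot be told apart in any comparison with it. Nothing says that replicates were separate cultures, so that p-values measure only the spread between these samples.

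Duplicates had been removed from the deposited lists, so that each read stands for 1 polymerase position. The AGTuC libraries held 2231837 and 4755740 reads, the inAGTuC libraries 623265 to 1462003 reads and the scGRO–seq batches 223119 to 4928371 reads. The median read length was 65 nt in both AGTuC libraries, 33 to 49 nt in the inAGTuC libraries and 18 to 58 nt in the scGRO–seq libraries. Of the reads in the scGRO–seq batches, 28.9% were also found in another library with the same position, barcode and molecular identifier, and these were left out everywhere. By library this removed 0.320% to 67.6% of the reads in scGRO–seq. It removed 4.67% to 23.5% in inAGTuC, but only 0.511% and 0.245% in AGTuC. The scGRO–seq list named Exp261_c16 shared 99.7% of its reads with the inAGTuC list of that name and was not used. Levels below are sense reads on the whole gene span, scaled to the sum of sense reads on genes and given per 1000000 of these reads (RPM). Fold changes are relative to that total, and fewer transcribing cells cannot be told apart from fewer polymerases per cell in the summed samples. All 8 markers of ES cells were detected in each assay, with a summed level of 2597 to 2753 RPM in AGTuC, 905 to 1531 in inAGTuC and 643 to 2190 in scGRO–seq. In limma's fit 7 of the 8 were lower in inAGTuC than in AGTuC and 8 of 8 were lower in scGRO–seq, against 26.1% and 40.9% of all genes tested. The 4 fibroblast markers summed to 2.85 to 4.04 RPM in AGTuC, with 2 of them at 0, to 10.4 to 64.2 in inAGTuC and to 19.1 to 85.4 in scGRO–seq. Of the 2 that were tested, Twist2 was called higher in both assays and Col1a1 in scGRO–seq. Twist2 had 2 reads in AGTuC, 27 in inAGTuC and 70 in scGRO–seq, and Col1a1 had 14, 16 and 119. Both reached the minimum of 50 reads for the test only with the reads of intact nuclei, so their choice favours a rise. The 3 neural markers summed to 83.4 to 93.0 RPM in AGTuC, 20.9 to 36.5 in inAGTuC and 12.9 to 55.8 in scGRO–seq. In both assays of intact nuclei Sox1 was called lower than in AGTuC (log2 -3.57 and -4.03) and Pax6 higher. Sox1 had 390 reads in AGTuC, 15 in inAGTuC and 29 in scGRO–seq, and Pax6 had 1, 40 and 126. Each reached the minimum of 50 reads only with the reads of the assays where it was high. The 4 markers of primitive endoderm summed to 38.5 to 39.1, 25.2 to 149.8 and 12.8 to 91.0 RPM, and the 4 of streak and mesoderm to 11.1 to 12.1, 4.17 to 14.6 and 0 to 26.9. Only 3 of the former and 1 of the latter had enough reads to be tested, with no call among them. The part of these markers in the members' differences was not tested.

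The members lie on GRCm38 at chr10:61417972-61425338 (Nodal), chr1:180935022-180938401 (Lefty1), chr1:180893108-180899107 (Lefty2), chr14:46383525-46390669 (Bmp4), chr2:152736251-152737410 (Id1), chr12:25093799-25096092 (Id2), chr4:136143822-136145392 (Id3), chr18:75367365-75395934 (Smad7) and chr3:31095058-31122923 (Skil). Bmp4 and Id2 are on the minus strand and the other members on the plus strand.

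The spans run from 1160 bp for Id1 to 28570 bp for Smad7, and the number of reads on a gene depends on its length as well as on its transcription. Lefty1 and Lefty2 are neighbours on the same strand and partly alike in sequence, and 13.7% of the 36-base words of Lefty1 also occur in Lefty2 (7.66% of those of Lefty2 occur in Lefty1), where a read of that length could belong to either.

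The RefSeq table of promoters (GRCm38.p6) held 4 of the 9 members, and the 250 bases before their starts are shown because the comparison of assays below turns on where polymerases stand relative to these starts. Capitals mark matches, on either strand, to TATAAA, to GGCGCC, to CCAAT or to GGGCGG, and GTCTAGAC (the palindrome formed by a pair of SMAD boxes) was searched for as well. Nodal is read on the plus strand of chr10:61417722-61417971, Bmp4 on the minus strand of chr14:46390670-46390919, Id2 on the minus strand of chr12:25096093-25096342 and Id3 on the plus strand of chr4:136143572-136143821.
Nodal: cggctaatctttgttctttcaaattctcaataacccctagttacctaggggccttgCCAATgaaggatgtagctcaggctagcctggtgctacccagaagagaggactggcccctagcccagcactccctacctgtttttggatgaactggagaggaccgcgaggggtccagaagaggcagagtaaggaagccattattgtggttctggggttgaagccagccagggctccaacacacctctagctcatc
Bmp4: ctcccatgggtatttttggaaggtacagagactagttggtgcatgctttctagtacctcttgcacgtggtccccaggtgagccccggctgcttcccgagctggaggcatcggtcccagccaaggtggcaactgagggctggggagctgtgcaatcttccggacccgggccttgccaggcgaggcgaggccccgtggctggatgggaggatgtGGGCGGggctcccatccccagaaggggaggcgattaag
Id2: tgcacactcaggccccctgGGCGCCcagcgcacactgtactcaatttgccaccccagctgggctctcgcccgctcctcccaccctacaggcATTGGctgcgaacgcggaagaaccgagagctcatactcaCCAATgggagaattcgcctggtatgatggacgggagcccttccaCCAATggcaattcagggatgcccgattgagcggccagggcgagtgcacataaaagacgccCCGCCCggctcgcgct
Id3: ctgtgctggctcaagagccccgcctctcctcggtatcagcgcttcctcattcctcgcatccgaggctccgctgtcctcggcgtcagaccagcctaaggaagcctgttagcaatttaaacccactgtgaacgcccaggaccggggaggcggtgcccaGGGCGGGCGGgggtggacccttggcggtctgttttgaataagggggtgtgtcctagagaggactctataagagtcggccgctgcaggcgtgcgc

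In these windows CCAAT occurred 3 times before Id2, at -159, -120 and -76 from the start, and once before Nodal, at -194. GGGCGG, the core of a GC box, began at -38 before Bmp4, at -16 before Id2 and, as overlapping matches, at -94 and -90 before Id3. GGCGCC, a motif found in BMP response elements, occurred before Id2 alone, at -231, and neither TATAAA nor GTCTAGAC occurred in the 4 windows. Among all 32851 promoters of the table, windows of the same length held CCAAT in 33.8%, GGGCGG in 32.7%, TATAAA in 12.4%, GGCGCC in 9.59% and GTCTAGAC in 0.167%. A match is a description of the letters only.

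The first question was whether the members were transcribed at the same relative level when nuclei were kept intact. They were not: in inAGTuC 5 of the 9 members were lower than in AGTuC and none was higher, against 26.1% lower and 17.8% higher of 16002 genes tested (limma voom, adjusted p under 0.05). The 5 were Nodal, Bmp4, Id1, Id3 and Smad7. Of these, Id1 and Id3 reached the minimum of 50 reads only with the reads of AGTuC, where they were high. They had 14 and 5 reads in inAGTuC and 31 and 20 in scGRO–seq, so that their choice for the test favours a fall. The median log2 difference was -1.39 over the members and -0.34 over all genes tested. In scGRO–seq, a comparison added after the data were seen, 6 of the 9 members were lower than in AGTuC, the same 5 and Skil, against 40.9% lower and 20.3% higher of all genes. Both comparisons share the AGTuC libraries. Of all calls, 40.6% were higher in inAGTuC and 33.2% in scGRO–seq, and scaling by the median of ratios, which moved the median of all genes by 0.30 and 0.45, changed these shares to 55.6% and 49.5% without ending the calls of the 5 members. By limma's trend method the inAGTuC calls of Nodal and Id1 were lost (limma adjusted p = 0.138 and 0.0696), with log2 differences of -1.51 and -2.82.

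Among the ligands, Nodal stood at 104 and 79.9 RPM in the AGTuC libraries. In the inAGTuC libraries it stood at 21.9, 29.2, 36.4 and 41.3, and in the scGRO–seq batches between 6.37 and 54.9 with a median of 26.4. Every intact-nucleus sample lay below both AGTuC libraries. How many of all genes separate the samples in this way was not counted, so such separation is only described, here and for the members below. The fitted level was 2.61 times lower in inAGTuC (log2 -1.39 ± 0.37 SE, adjusted p = 0.00542) and 3.58 times lower in scGRO–seq (log2 -1.84 ± 0.31, adjusted p = 6.22e-05), by limma voom.

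Bmp4, the other ligand, stood at 72.7 and 78.5 RPM in AGTuC and at 10.96, 12.5, 12.8 and 8.03 in inAGTuC. In scGRO–seq it ran from 3.95 to 48.1 with a median of 18.8. Here too the groups did not overlap, and all 14 samples of intact nuclei were lower. The fitted level was 6.61 times lower in inAGTuC (log2 -2.73 ± 0.48, limma adjusted p = 0.000297) and 4.91 times lower in scGRO–seq (log2 -2.30 ± 0.34, limma adjusted p = 1.42e-05).

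For the secreted inhibitors Lefty1 and Lefty2 no difference from AGTuC passed the test. Lefty1 stood at 17.8 and 12.5 RPM in AGTuC, at 36.5, 37.5, 27.8 and 2.29 in inAGTuC and between 0 and 23.8 in scGRO–seq, with a median of 12.8. Lefty2 stood at 16.4 and 15.2 in AGTuC, at 40.2, 31.3, 10.7 and 11.5 in inAGTuC and between 0 and 31.4 in scGRO–seq, with a median of 17.5. For both genes samples of intact nuclei lay on either side of AGTuC. The fitted log2 differences from AGTuC were -0.08 ± 0.69 (Lefty1) and 0.22 ± 0.65 (Lefty2) in inAGTuC, and 0.01 ± 0.59 and -0.03 ± 0.57 in scGRO–seq, with limma adjusted p-values from 0.799 to 0.989. Those of Lefty1 turned sign with the scaling by median of ratios in inAGTuC and those of Lefty2 in scGRO–seq. Without Exp261_c16, the library in which Lefty1 was lowest, Lefty1 was higher in inAGTuC (log2 1.25, limma adjusted p = 0.0473). With 62 and 68 reads in AGTuC, the 2 genes are among the least covered members.

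Of the BMP targets, Id1 had the highest level per length of the members in AGTuC, at 47.4 ± 2.77 RPM per kb (SD, n = 2), above 99.2% of the genes. Not divided by length, it stood at 52.7 and 57.3 RPM in AGTuC, at 7.31, 10.4, 6.42 and 4.59 in inAGTuC, and between 0 and 20.6 in scGRO–seq with a median of 5.67. No sample of intact nuclei came near AGTuC. The fitted level was 7.25 times lower in inAGTuC (log2 -2.86 ± 0.55, limma adjusted p = 0.000584) and 8.37 times lower in scGRO–seq (log2 -3.06 ± 0.40, limma adjusted p = 4.13e-06).

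Id3 stood at 31.4 and 30.0 RPM in AGTuC and at 0, 0, 2.14 and 4.59 in inAGTuC, where only 5 reads fell on the gene. In scGRO–seq it ran from 0 to 12.8 with a median of 3.73. The fitted difference was the largest of the members in inAGTuC, 12.5 times lower (log2 -3.65 ± 0.61, limma adjusted p = 0.000200), and in scGRO–seq the level was 6.50 times lower (log2 -2.70 ± 0.41, limma adjusted p = 2.14e-05). Because 2 of the 4 inAGTuC libraries held no read, the size of the first value depends on the offset that the fit adds to counts of 0.

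Id2 was the only Id gene with no call in either assay. It stood at 11.4 and 13.1 RPM in AGTuC, at 7.31, 6.26, 19.3 and 4.59 in inAGTuC and between 0 and 12.1 in scGRO–seq with a median of 6.38. The highest inAGTuC library, Exp234_c11, was above both AGTuC libraries, and 9 of 10 scGRO–seq batches were below them. The differences did not pass the test (log2 -0.55 ± 0.53, limma adjusted p = 0.408 in inAGTuC; -0.87 ± 0.43, limma adjusted p = 0.0841 in scGRO–seq). Whether Id2 differed from Id1 and Id3 in its change was not tested.

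Smad7 carried the most reads of the members in every assay. It stood at 632 and 569 RPM in AGTuC, at 102, 154, 131 and 115 in inAGTuC and between 96.6 and 316 in scGRO–seq with a median of 141. The ranges were far apart, and the lower AGTuC library was above every other sample. The fitted level was 4.74 times lower in inAGTuC (log2 -2.25 ± 0.28, limma adjusted p = 2.54e-05) and 3.96 times lower in scGRO–seq (log2 -1.99 ± 0.23, limma adjusted p = 1.33e-06). The gene of the co-repressor Skil lay closer to its AGTuC level. It stood at 101 and 110 RPM in AGTuC, at 80.4, 85.5, 70.6 and 116 in inAGTuC and between 39.5 and 126 in scGRO–seq with a median of 51.4. Skil did not pass the test in inAGTuC (log2 -0.24 ± 0.31, limma adjusted p = 0.548), and in scGRO–seq its level was 1.60 times lower (log2 -0.68 ± 0.28, limma adjusted p = 0.0386), a call that did not hold without any 1 of 5 batches or without either AGTuC library (limma adjusted p from 0.0514 to 0.228), where the log2 difference was -0.73 and -0.61. In each fit that leaves out an AGTuC library, the remaining one is assumed to vary like the samples of the other groups. The call was also lost with scaling by the median of ratios, on the body without its outer 500 bp and by limma's trend method. It was lost as well with all deposited reads and at a mapping quality of at least 10. The same held with reads of at least 25 nt and with each position counted once (limma adjusted p from 0.0781 to 0.518 over these 7 fits). Over all alternatives the log2 difference of Skil in scGRO–seq ran from -0.75 to -0.22. In inAGTuC its sign turned with the median of ratios (log2 0.039).

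**Figure D1:**
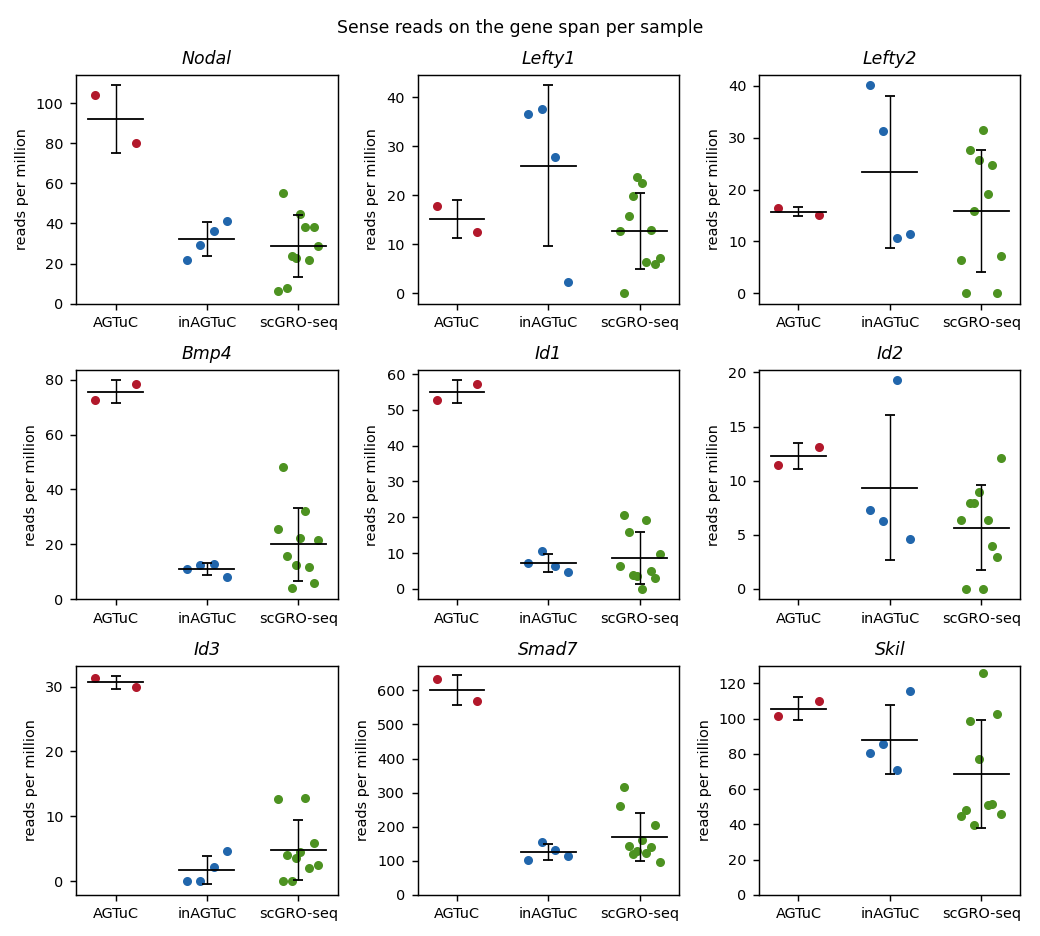
Sense RPM on each of the 9 gene spans, with 1 point per AGTuC library, inAGTuC library or scGRO–seq batch and a line at the mean of each assay with a bar of 1 SD on either side. All points of intact nuclei lie below both AGTuC libraries for Nodal, Bmp4, Id1, Id3 and Smad7, and on either side of them for Lefty1 and Lefty2. How many of all genes separate in this way was not counted.

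Between the 2 assays of intact nuclei no gene of 16002 passed the test in either direction (0% and 0%), with 900 genes at an unadjusted p under 0.05 and none of the members among them. limma's trend method made no call either. The members' log2 differences of scGRO–seq from inAGTuC ran from -0.45 ± 0.36 for Nodal to 0.95 ± 0.62 for Id3. Without the inAGTuC library Exp261_c16, 17 genes were higher and 146 lower in scGRO–seq, none of them a member. The experiment Exp208 held both assays, and there Smad7 stood at 102 and 154 RPM in inAGTuC and at 142 in scGRO–seq. Skil stood at 80.4 and 85.5 and at 98.9, and Nodal at 21.9 and 29.2 and at 7.91. The values of Nodal rest on 6, 14 and 2 reads.

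The other genes of the pathway were called in either direction at shares near those of all genes. Of a list of 57 ligands, receptors, antagonists, transducers, regulators and further targets, 49 were tested, and 6 were higher and 15 lower in inAGTuC than in AGTuC, against 17.8% higher and 26.1% lower of all genes, with a median log2 difference of -0.36 against -0.34 over all genes. In scGRO–seq 8 were higher and 21 lower, against 20.3% and 40.9% of all genes, and none passed the test between the 2 assays of intact nuclei. By role, 1 of 7 SMAD genes was lower in inAGTuC (Smad5) and none was higher. Of the 8 regulators 4 were lower, and of the 11 ligands tested 3 were higher and 2 lower. Of the 14 receptors and co-receptors tested 3 were higher and 3 lower, and of the 4 antagonists tested 2 were lower. Of the 5 further targets tested 3 were lower in inAGTuC, and in scGRO–seq 4 were lower and 1 higher. The ligand gene Inhbb, which encodes an activin subunit, fell most, from 210 and 213 RPM in AGTuC to between 14.6 and 25.7 in inAGTuC (log2 -3.40, limma adjusted p = 0.000175) and to a median of 21.2 in scGRO–seq (log2 -3.42, limma adjusted p = 1.38e-06). It was followed in inAGTuC by Bambi, a decoy receptor (log2 -2.73, limma adjusted p = 0.000984), and Cited2, a transcriptional co-regulator (log2 -2.28, limma adjusted p = 0.000557), and in scGRO–seq by Cited2 (log2 -2.77, limma adjusted p = 1.93e-06) and the ligand gene Gdf1 (log2 -2.35, limma adjusted p = 0.000563).

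The genes that rose most were nearly silent in AGTuC. Acvr1c, the gene of the receptor ALK7, had 0 reads in AGTuC, 24 in inAGTuC and 49 in scGRO–seq, which is at least 16.7-fold and at least 12.9-fold higher than 3 reads over the AGTuC group would be. The ligand gene Bmp5 had 1 read in AGTuC, 15 in inAGTuC and 77 in scGRO–seq, a ratio of levels of 31.3 (exact 95% counting interval 4.82 to 1319) and 61.0 (10.6 to 2440). The ligand gene Tgfb3 had 6 reads in AGTuC and 31 in inAGTuC, a ratio of levels of 10.8 (exact 95% counting interval 4.44 to 31.7). No count of these 3 genes was above 77 reads in any assay. Each of them reached the minimum of 50 reads for the test only with the reads of intact nuclei, so their choice favours a rise. They are among the pathway genes counted as higher in both assays above.

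The second question was where along the members the polymerases stood. Reads within 500 bp of the start were set against those on the rest of the span (the body), with all reads of an assay summed. Over all genes with at least 20 reads, the median share of promoter reads was 27.0% in AGTuC, 4.29% in inAGTuC and 3.597% in scGRO–seq. For Skil it fell from 29.3% in AGTuC, with 146 promoter and 353 body reads, to 3.50% in inAGTuC and 4.03% in scGRO–seq, with 7 promoter and 193 body reads and 16 promoter and 381 body reads. Bmp4 had 97 promoter and 239 body reads in AGTuC, 4 and 21 in inAGTuC, and 9 and 75 in scGRO–seq. Id2 had 37 and 18 in AGTuC, 6 and 12 in inAGTuC, and 13 and 27 in scGRO–seq.

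The other members differed in where they started. Smad7, with 123 promoter reads in AGTuC, had a promoter share of 4.77% in AGTuC, 3.40% in inAGTuC and 1.89% in scGRO–seq. Nodal had 29 promoter and 356 body reads in AGTuC, 9 and 64 in inAGTuC, and 5 and 134 in scGRO–seq. In 4 members the pooled promoter share was higher in both assays of intact nuclei than in AGTuC, and none of these 4 passed the test below. Lefty1 had 8 promoter and 54 body reads in AGTuC, 14 and 30 in inAGTuC, and 33 and 66 in scGRO–seq. Lefty2 had 4 and 65, 3 and 38, and 16 and 102. For Id1 and Id3, the 2 shortest spans, the promoter share was 47.0% and 43.6% in AGTuC, 57.1% and 50.0% in inAGTuC (on 14 and 6 reads), and 61.8% and 57.1% in scGRO–seq.

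By the interaction of region and assay, only Skil of the 9 members passed the test, against 36.6% lower and 1.65% higher of 16192 genes in inAGTuC and 42.4% and 3.33% in scGRO–seq. Its promoter reads fell 12.5 times more than its body reads in inAGTuC (log2 -3.64 ± 0.99, limma adjusted p = 0.00470) and 6.84 times more in scGRO–seq (log2 -2.78 ± 0.87, limma adjusted p = 0.00931). Without either AGTuC library the differences were of like size (log2 -3.48 and -3.75 in inAGTuC, -2.60 and -2.94 in scGRO–seq) and did not pass the test (limma adjusted p from 0.0540 to 0.120). The median log2 difference over all genes was -2.01 and -1.90, and over the members 0.41 and 0.34. Where each region was scaled to its own total, the median over all genes was 0.54 and 0.99, the share of higher among called genes went from 4.31% and 7.28% to 91.3% and 95.9%, and the call for Skil was lost (log2 -1.03, limma adjusted p = 0.503 in inAGTuC; 0.14, limma adjusted p = 0.923 in scGRO–seq). With that scaling 4 members were called higher in inAGTuC (Nodal, Lefty1, Id1 and Id3), and 5 in scGRO–seq (the same 4 and Lefty2). This was the direction of most called genes under that scaling, and it is not read as particular to the members. For sparse members the fitted sign can go against the pooled counts, as for Nodal in scGRO–seq (log2 0.36 ± 0.91, limma adjusted p = 0.752).

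In AGTuC polymerases were found past the annotated ends of all 9 members, and relative to the body 4 members had fewer such reads in inAGTuC and 3 in scGRO–seq by the test below, calls that depend on the scaling. In the 5 kb past the end (4116 bp for Lefty1, up to the next gene), reads on Id1 numbered 494 in AGTuC, 15 in inAGTuC and 24 in scGRO–seq, against 131, 6 and 13 reads on its body. Smad7 had 445, 7 and 17 reads past its end, against 2457, 256 and 778 on its body. For Nodal the numbers past the end were 255, 9 and 29, for Bmp4 225, 3 and 18, and for Id3 196, 2 and 31. For Skil they were 123, 8 and 23, for Lefty2 74, 5 and 28, for Id2 70, 4 and 3, and for Lefty1 30, 9 and 6. Per 100 body reads this is 18.1, 2.73 and 2.19 for Smad7, and 389, 33.3 and 11.1 for Id2. For Id1 it is 377 in AGTuC and 185 in scGRO–seq (in inAGTuC, 15 reads past the end beside 6 on the body), for Lefty1 55.6, 30.0 and 9.09, and for Id3 261, 66.7 and 344, where the last value holds a pile of reads described below. The other members were between 34.8 and 114 in AGTuC, between 4.15 and 14.3 in inAGTuC and between 6.04 and 27.5 in scGRO–seq. The all-gene median was 24.1 in AGTuC, 5.41 in inAGTuC and 6.96 in scGRO–seq.

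In the test of these reads against the body, 4 members were lower in inAGTuC than in AGTuC, against 20.6% lower and 1.85% higher of 16451 genes. They were Id2 (log2 -3.33 ± 0.95, limma adjusted p = 0.0130), Skil (-3.24 ± 0.88, limma adjusted p = 0.00912), Lefty2 (-2.79 ± 0.92, limma adjusted p = 0.0266) and Smad7 (-2.30 ± 0.80, limma adjusted p = 0.0342). In scGRO–seq 3 were lower, against 23.8% lower and 3.17% higher: Id2 (-3.35 ± 0.82, limma adjusted p = 0.00328), Smad7 (-2.70 ± 0.68, limma adjusted p = 0.00396) and Skil (-1.99 ± 0.75, limma adjusted p = 0.0449). Id2 had 70 reads past its end and 18 on its body in AGTuC, 4 and 12 in inAGTuC, and 3 and 27 in scGRO–seq. It reached the minimum of 50 reads over both regions only with those of AGTuC, so its choice for this test favours a fall. No member was higher, and the members' median of -2.16 and -1.60 stood beside -1.39 and -1.18 over all genes. With each region scaled to its own total no member was called, and the share of higher among called genes went from 8.22% and 11.8% to 91.4% and 95.4%. Without either AGTuC library no member passed the test, with log2 differences in inAGTuC of -2.89 and -3.82 for Id2, -3.12 and -3.32 for Skil, -2.84 and -2.73 for Lefty2 and -2.26 and -2.35 for Smad7. In inAGTuC the calls of Smad7 and Lefty2 were also lost with 2 kb, with the log2 ratio and without Exp208_c14 or Exp261_c16, and that of Smad7 with 10 kb, at a mapping quality of at least 10 and with reads of at least 25 nt (limma adjusted p from 0.0508 to 0.146), with log2 differences from -2.60 to -2.27 for Lefty2 and from -2.25 to -1.66 for Smad7. In scGRO–seq the call of Skil was lost with 2 kb, a minimum of 10 reads, a mapping quality of at least 10, the log2 ratio and reads of at least 25 nt, and without Exp208, Exp236 or Exp260b (limma adjusted p from 0.0538 to 0.281), with log2 differences from -1.99 to -1.18.

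The profile past the end differed between members. In AGTuC the 317 reads of the first kb past Id1 fell to 121, 45, 5 and 6 over the next 4 kb, and past Id2 60 of 70 reads lay in the first kb. Past Smad7 148, 154, 103, 30 and 10 reads were counted in successive kb. Past Bmp4 the second kb held the most, with 51, 93, 32, 45 and 4 reads. For Id3 the scGRO–seq reads past the end held a pile: 15 of 31 reads ended at the same position, 205 bases past the end, in 2 batches, with a median read length of 20 nt. Without it 16 reads were left beside 9 on the body, a lower ratio than that of 196 to 75 in AGTuC.

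**Figure D2:**
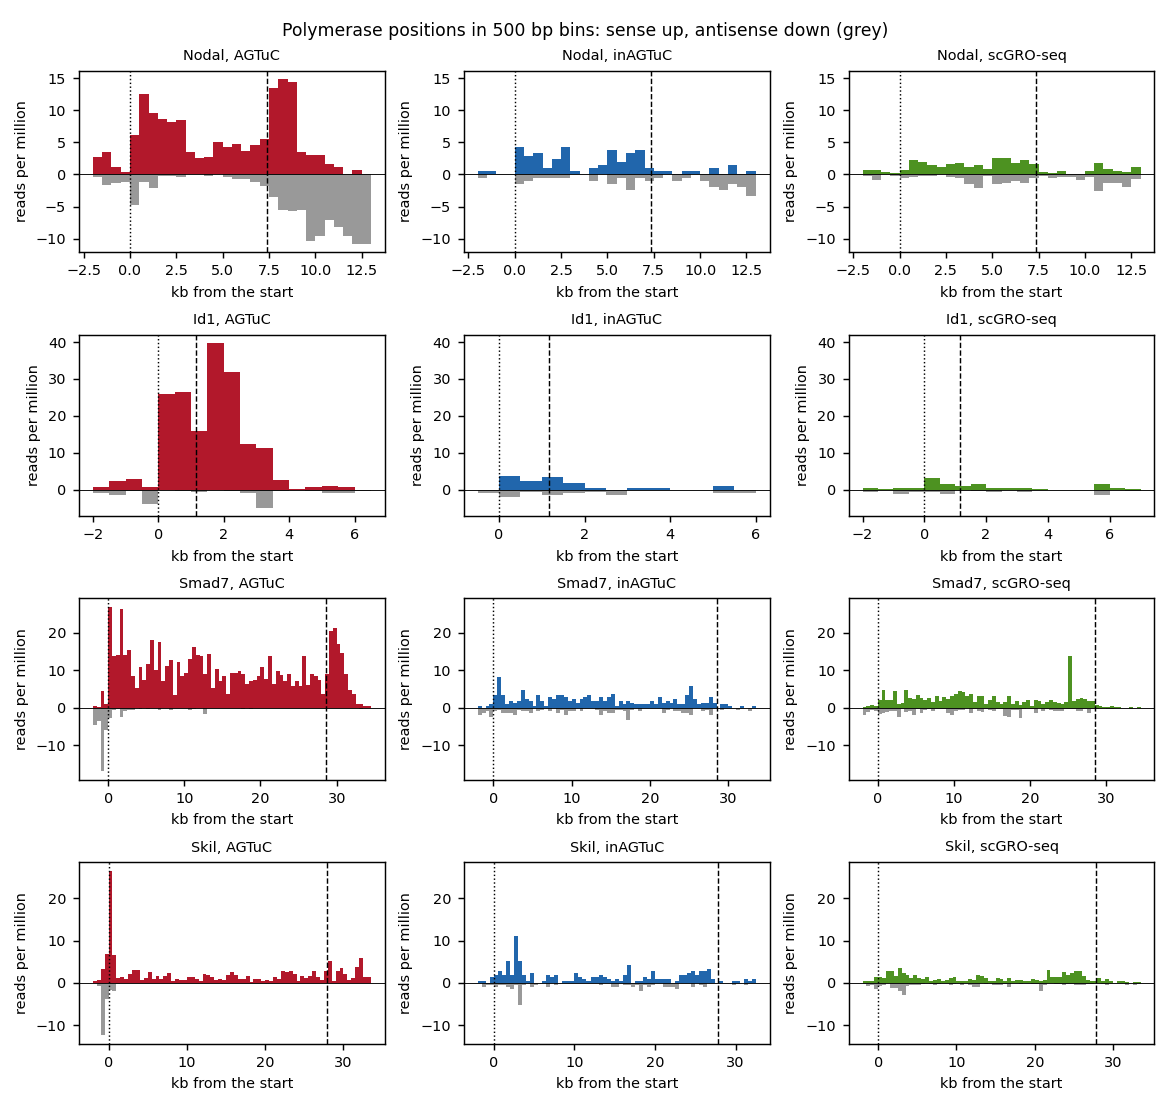
Polymerase positions along Nodal, Id1, Smad7 and Skil in 500 bp bins, as RPM summed over the samples of an assay, with sense reads upward in colour, antisense reads downward in grey, a dotted line at the start and a dashed line at the end of the span. In AGTuC reads continue past the end of Nodal, Id1 and Smad7 and stand at the start of Skil, and in scGRO–seq a single bin near the end of Smad7 stands out.

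Upstream of the starts, reads on the opposite strand were found in AGTuC at all members. In the kb before the start, antisense reads numbered 100 for Smad7, 71 for Skil, 41 for Bmp4, 31 for Id3, 25 for Id2, 19 for Id1, 17 for Lefty2, 11 for Nodal and 8 for Lefty1. In inAGTuC the numbers were between 0 and 7 and in scGRO–seq between 0 and 11. For Lefty1 and Nodal the AGTuC numbers stood beside 25 and 59 antisense reads on spans of 3380 and 7367 bp, a like number per kb. These windows were not tested.

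**Figure D3:**
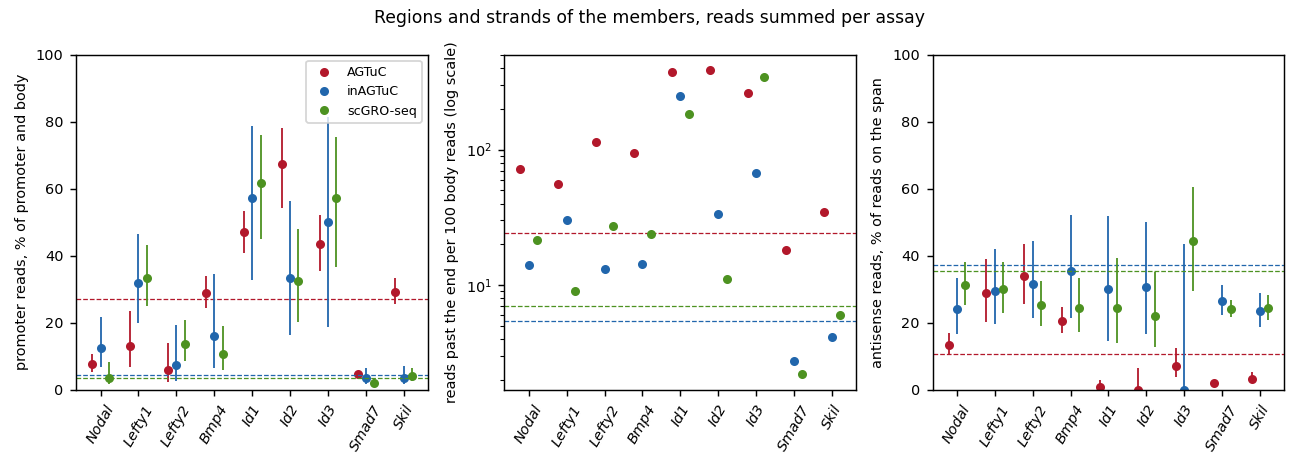
Promoter share (left), reads past the end per 100 body reads on a log scale (middle) and antisense share (right) of each member, with reads summed per assay, 95% Wilson intervals as bars for the shares and the median of all genes as a dashed line in the colour of the assay. Skil falls from 29.3% to 3.50% and 4.03% in promoter share, and the antisense share of Smad7 rises from 2.02% to 26.5% and 24.2%.

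On the spans themselves, reads on the strand opposite to the gene were set against the sense reads, a comparison added after the data were seen. Such a share also rises where sense reads fall. Over all genes with at least 20 reads the median antisense share was 10.6% in AGTuC, 37.2% in inAGTuC and 35.4% in scGRO–seq. Smad7 had 53 antisense reads beside 2575 sense reads in AGTuC (2.02%), 95 beside 263 in inAGTuC (26.5%) and 252 beside 790 in scGRO–seq (24.2%). Skil had 16 beside 469, 60 beside 197 and 125 beside 389, or 3.30%, 23.3% and 24.3%. Id2 had 0 beside 55 in AGTuC, which allows up to 5.45 antisense reads per 100 sense reads, 8 beside 18 in inAGTuC and 11 beside 39 in scGRO–seq. By contrast, Lefty1 stood at 28.7%, 29.5% and 29.9%, and Lefty2 at 34.0%, 31.7% and 25.2%.

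In the test of antisense against sense reads 5 members were called higher in both assays, against 42.1% higher and 5.55% lower of 18134 genes in inAGTuC and 43.8% and 7.00% in scGRO–seq. These were Id1, Id2, Id3, Smad7 and Skil. For Smad7 the ratio of antisense to sense reads was 16.3 times higher in inAGTuC (log2 4.02 ± 0.77, limma adjusted p = 6.23e-05). In scGRO–seq it was 11.9 times higher (log2 3.57 ± 0.68, limma adjusted p = 4.59e-05). These values include the fall of its sense level, which was 4.74 and 3.96 times lower. Skil was 8.82 and 5.73 times higher (limma adjusted p = 0.00196 and 0.00528). For Id1, with 2 antisense reads in AGTuC, the pooled ratio was 52.3 (exact 95% counting interval 9.35 to 530) in inAGTuC and 39.4 (8.39 to 369) in scGRO–seq. For Id2 it was at least 8.15-fold and at least 5.17-fold higher. The call for Id3 in inAGTuC rests on no antisense read there, since 10 were seen beside 133 sense reads in AGTuC and 0 beside 5 in inAGTuC. Its pooled antisense share thus went the other way, from 6.99% in AGTuC to 0% in inAGTuC. In scGRO–seq Id3 had 16 beside 20. With each strand scaled to its own total the share of higher among called genes went from 88.4% and 86.2% to 66.5% and 66.9%, and the call for Id3 in inAGTuC was lost (limma adjusted p = 0.233). In inAGTuC that call was also lost without Exp125c_c01, Exp208_c12 or Exp208_c14, and that for Id2 without Exp125c_c02. In scGRO–seq the call for Id3 was lost without Exp125c_c01, and those for Id1 and Skil without Exp125c_c02. The call for Skil was lost there with reads of at least 25 nt as well (limma adjusted p = 0.102). With 1 sample left out at a time these log2 differences kept their sign. In inAGTuC they ran from 2.09 to 3.69 for Id3 and from 2.92 to 4.33 for Id2. For Id3 in inAGTuC the sign rests on the offset that the fit adds to counts of 0, so that its being kept is no support. In scGRO–seq they ran from 2.30 to 3.97 for Id3, from 3.32 to 6.83 for Id1 and from 2.24 to 2.67 for Skil.

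The antisense share moved with the library and not only with the assay. Over the 9 members together it was 5.75% and 6.46% in AGTuC, 14.1%, 18.1%, 27.6% and 46.0% in inAGTuC and between 11.9% and 34.2% in scGRO–seq with a median of 18.2%. The highest inAGTuC library, Exp234_c11, also had the highest share over all genes, at 52.4%, and the lowest, Exp261_c16, had the lowest, at 19.2%. In scGRO–seq the members' share was 33.3% in Exp236 and 34.2% in Exp260 and at most 28.9% in the other batches. The part of stray reads of either strand in the sense levels above was not tested.

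The levels in single-cell batches can be set against the spread between plates. An F test over 35 plates of the 10 batches could be run for 6 members, and 2 of them differed between batches, against 31.8% of 12289 genes. For Smad7, F was 4.41 (limma adjusted p = 0.00346), with the batches Exp156 and Exp160 at 261 and 316 RPM and the others between 96.6 and 206. For Lefty2, F was 3.31 (limma adjusted p = 0.0182), with 0 reads in Exp160 and Exp263 and the highest level, 31.4, in Exp246. The call for Lefty2 was lost without Exp236 or without Exp263 (limma adjusted p = 0.0787 and 0.166) and at a mapping quality of at least 10 (limma adjusted p = 0.0636). Nodal, Bmp4, Lefty1 and Skil did not pass the test (limma adjusted p from 0.0845 to 0.468). Nodal had the lowest level in Exp156, at 6.37 RPM on 1 read, where Smad7 was the second highest.

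A pile of short reads accounted for part of the Smad7 signal. Of 790 sense reads of kept cells, 73 (9.24%) lay in 50 bp that begin 25455 bases from the start, 69 of them at the same position. They had a median length of 20 nt and a median mapping quality of 24, and 72 were shorter than 25 nt. Exp260b held 33 and Exp263 held 30 of them, with 5, 3 and 2 in Exp236, Exp260 and Exp246 and none in the other batches. In inAGTuC 10 reads fell there, all in 1 library, and in AGTuC 2. Without these 50 bp Smad7 was still lower than AGTuC in both assays and still differed between batches.

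The third question was how many cells showed a member at all. A kept cell had a median of 3434 UMIs, and 1086 of 2518 cells (43.1%, 95% Wilson interval 41.2 to 45.1, counting error only) held a sense UMI on at least 1 of the 9 genes. Antisense UMIs on the same spans, used here as a background, were found in 16.4% of the cells. Smad7 was seen in 630 cells (25.0%), Skil in 335 (13.3%), Nodal in 133 (5.28%), Lefty2 in 112 (4.45%), Lefty1 in 87 (3.46%), Bmp4 in 76 (3.02%), Id2 in 38 (1.51%), Id1 in 31 (1.23%) and Id3 in 20 (0.794%). In that order the 95% intervals of neighbours overlapped from Nodal down to Bmp4 and from Id2 down to Id3. Those of Smad7, Skil and Nodal stood apart, as did those of Bmp4 and Id2. These intervals count pooled cells and leave out the spread between batches. Over batches the shares of Smad7 (14.02% to 35.5%) and Skil (6.45% to 23.7%) overlapped, as did those of Skil and Nodal (0.971% to 9.68%). Those of Bmp4 (0.791% to 6.45%) and Id2 (0% to 2.83%) overlapped too. The 2 longest spans, Smad7 and Skil, had the highest shares and the 2 shortest, Id1 and Id3, the lowest. The antisense shares were 8.499% for Smad7, 4.49% for Skil, 2.26% for Nodal, 1.51% for each Lefty gene, 1.03% for Bmp4, 0.437% for Id2, 0.397% for Id1 and 0.556% for Id3. For Id3 the intervals of the sense share (0.515 to 1.22) and the antisense share (0.331 to 0.931) overlapped, so that Id3 could not be told from background in single cells at this depth.

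The shares varied between batches. The share of Smad7 ran from 14.02% in Exp264a to 35.5% in Exp160, with a median of 23.8%, and that of Skil from 6.45% in Exp160 to 23.7% in Exp246, with a median of 9.22%. For Nodal the range was 0.971% in Exp156 (1 of 103 cells) to 9.68% in Exp246 (9 of 93 cells). Lefty1 was seen in no cell of Exp160, and Lefty2 in no cell of Exp160 or Exp263. Without the 50 bp pile the share of Smad7 was 22.8% over all cells, and fell from 24.1% to 15.0% in Exp263 and from 22.6% to 17.9% in Exp260b. The median number of UMIs per cell ran from 1864 in Exp156 to 4156 in Exp236, and with every cell thinned to 1000 UMIs the share of cells with any member was 14.4% (3.97% antisense), with batches from 10.2% in Exp211 to 23.7% in Exp156. Smad7 was then seen in 7.16% of cells, Skil in 3.41% and Nodal in 1.28%. At this thinned depth Exp156 and Exp160 had the highest shares of Smad7, 16.97% and 11.7%.

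**Figure D4:**
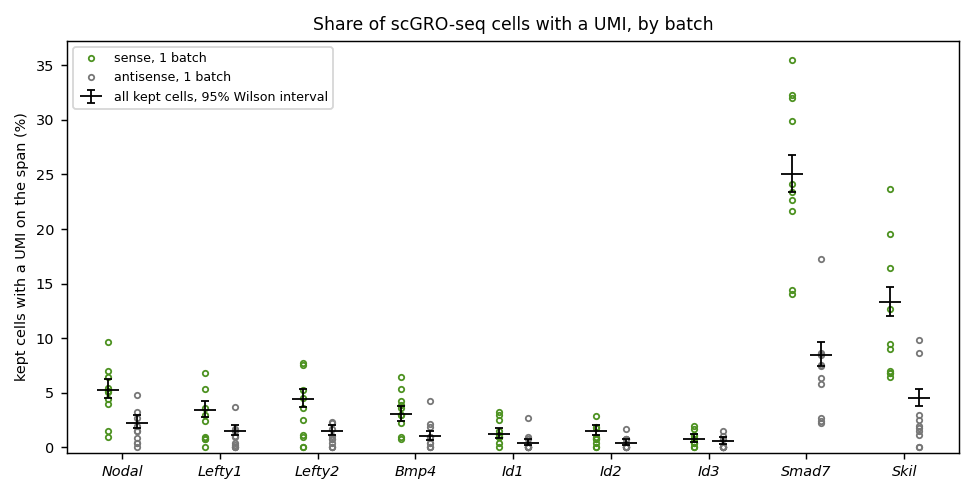
Share of kept scGRO–seq cells with at least 1 sense UMI on each member, in percent, with 1 circle per batch (sense in green, antisense in grey) and a black dash with its 95% Wilson interval for the share over all 2518 cells. Smad7 spreads from 14.02% to 35.5% over the batches and Skil from 6.45% to 23.7%, and the other members stay below 10%.

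Few cells showed several members. No member was seen in 1432 cells, 1 member in 777, 2 in 252, 3 in 48, 4 in 8 and 5 in 1 cell. Smad7 and Skil were seen together in 118 cells, Nodal and Smad7 in 46, and Lefty1 and Lefty2 in 11, while Nodal was seen with Lefty1 in 9 cells and with Lefty2 in 8. If the shares were simply multiplied, these numbers would be 83.8, 33.3, 3.87, 4.60 and 5.92. Other pairs lay below the product, such as Bmp4 and Smad7 with 18 cells beside 19.0. Nodal and Id2 had 0 beside 2.01, and Lefty1 and Bmp4 had 2 beside 2.63. Cells with more UMIs are more likely to show any gene, and 7.71% of cells above the median number of UMIs showed Nodal against 2.86% of the rest. The co-occurrence is therefore given as counts with no test. Of the 254 barcodes of kept cells 226 occurred in more than 1 library.

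For each member the most similar gene over the 16 samples was found by Pearson's correlation of log2(RPM + 1), as a description in which the 2 AGTuC libraries weigh heavily and the samples differ in depth. The most similar genes were Mrps16 for Nodal (r = 0.90), Snx10 for Lefty1 (0.88), Arih1 for Lefty2 (0.93), Rpl10a for Bmp4 (0.90), Ilkap for Id1 (0.91), Mtif3 for Id2 (0.91), Set for Id3 (0.88), Adipor1 for Smad7 (0.95) and Mettl4 for Skil (0.88), among 10835 or 10836 genes with at least 200 reads. Id2 and Id3 had fewer reads than that and could not be found as the most similar gene of another member, and none of the other 7 members was.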

How the data were processed

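Per library the authors deposited a list of reads, made with cutadapt, Bowtie2 (mm10) and UMI-tools, and the score of each entry is a mapping quality. Entries were counted here with no normalization by the authors. RNA lies on the strand opposite to the entry. Gene spans were those of curated RefSeq transcripts of GRCm38. Cells with at least 1000 UMIs and 750 features, in libraries with at least 24 such cells, were kept (2518 cells in 35 libraries) and summed per batch. Genes with at least 50 reads over the 16 sums were tested with limma 3.58.1 voom in R 4.3.3, two-sided, with Benjamini–Hochberg adjustment over all genes tested, and calls were made at an adjusted p under 0.05. The fits were tested on simulated data. There the level fit found most changes of a log2 of 2 in either direction and few of a log2 of 1. The fit of promoter against body missed nearly all changes of either size, so that a missing call in it says little. The members, the pathway list and the markers were chosen with earlier results of these data known. Named are all members, the 3 largest rises and falls of the pathway list per comparison of level (1 gene is not reported here), and the most similar gene of each member. Other computations used Python 3.11.15, numpy 2.4.6, pandas 2.3.3 and scipy 1.17.1.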

Additional observations from a re-analysis of the deposited data

How the results depend on the processing

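Nodal, Bmp4, Id1, Id3 and Smad7 were lower than AGTuC in both assays of intact nuclei under each alternative run (Id1 is too short for a body without its ends), and for inAGTuC 3 of these 5 calls were left with limma's trend method (Nodal, adjusted p = 0.138, and Id1, adjusted p = 0.0696, were lost). That method called 1208 genes higher and 731 lower in inAGTuC, against 2856 and 4182 in the voom fit, and 1684 and 2738 in scGRO–seq, against 3253 and 6548. A minimum of 10 reads called 5200 and 4288 genes in inAGTuC and 5981 and 6686 in scGRO–seq, and the fit without the AGTuC library Exp125c_c02 called 973 and 1938, and 1665 and 4045. Depth and the number of libraries limit the members: Id3 had 5 reads in inAGTuC, Id2 had 55 in AGTuC, and AGTuC had 2 libraries of 1 experiment. In inAGTuC each member had at most 14 promoter reads and 15 reads past its end, so that a member without a call there is no sign of stability. The cause of a change under an alternative was not tested. Counts of members called below stand without the share of all genes and describe only how the calls moved.

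In level, members without a call changed sign as follows (log2). In inAGTuC against AGTuC, median-of-ratios scaling gave 0.35 for Lefty1 and 0.039 for Skil, the body without its outer 500 bp gave 0.18 for Skil, and Lefty1 was 0.27 by limma trend, 0.27 with all deposited reads and 0.33 at a mapping quality of at least 10. In scGRO–seq against AGTuC, Lefty1 was -0.41 on the body without its ends, -0.60 by limma trend, -0.0071 with a minimum of 10 reads, -0.071 with all deposited reads and -0.044 with all barcodes, and Lefty2 was 0.40 with median-of-ratios scaling, 0.0057 with all reads, 0.046 at a mapping quality of at least 10, 0.068 with all barcodes and 0.15 with reads of at least 25 nt. In scGRO–seq against inAGTuC, Lefty1 was -0.13 on the body, -0.87 by limma trend, -0.34 with all reads and -0.16 at the higher mapping quality, and all reads gave 0.11 for Id1 and 0.049 for Id2. With 1 sample left out at a time, Lefty1 ran from -0.48 to 1.25 in inAGTuC against AGTuC, from -0.30 to 0.21 in scGRO–seq against AGTuC and from -1.24 to 0.49 between both. Lefty2 ran from -0.013 to 0.58, from -0.33 to 0.27 and from -0.60 to 0.043, and in the last comparison Id1 ran from -0.47 to 0.11 and Id2 from -0.69 to 0.039.

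For promoter against body in inAGTuC, 2 members (Lefty1 and Skil) were called with a window of 250 bp and 4 with each region scaled to its own total. Among members without a call, the first gave 0.32 for Smad7 and the second 2.03 for Bmp4, 0.46 for Id2 and 2.30 for Smad7. A window of 1000 bp gave -1.46 for Id1, -0.96 for Id3 and 0.64 for Smad7, and a log2 ratio with a pseudocount of 1 gave 0.0046 for Smad7. In scGRO–seq 2 members were called with 250 bp and 2 with 1000 bp, where Nodal was at -0.63, Id1 at -2.09 (limma adjusted p = 0.0357) and Id3 at -0.25. With each region scaled to its own total 5 were called, and of the others Bmp4 was at 1.80, Id2 at 1.57, Smad7 at 1.81 and Skil at 0.14. All reads gave -0.080 for Id1. Leaving out samples gave 0 to 1 called members in either assay. It gave -0.10 to 0.89 for Lefty2, -0.39 to 1.20 for Id1 and -0.71 to 0.058 for Smad7 in inAGTuC, and -0.23 to 0.98 for Nodal in scGRO–seq.

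For reads past the end in inAGTuC, 2 members were called with 2 kb and 2 with the log2 ratio. With each region scaled to its own total 0 were, and Nodal was at 0.20, Lefty1 at 1.27, Id1 at 1.06 and Id3 at 0.76. In scGRO–seq 6 were called with all deposited reads and 0 with own totals, where Nodal was at 0.65, Lefty1 at 0.88, Lefty2 at 0.66, Bmp4 at 0.53, Id1 at 0.82, Id3 at 1.71 and Skil at 0.25. With samples left out 0 to 5 and 0 to 4 were called.

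For antisense against sense in inAGTuC, own totals gave -0.33 for Nodal, -1.11 for Lefty1 and -0.28 for Bmp4, and leaving out samples gave -0.17 to 0.52 for Lefty1 and -1.04 to 0.38 for Lefty2. In scGRO–seq Lefty1 was at 0.35 with all reads, 0.0024 with all barcodes, 0.13 as a log2 ratio and 0.015 with each position counted once, and Bmp4 at -0.25 with all reads and -0.83 with own totals. With samples left out 3 to 5 members were called, Lefty1 ran from -0.27 to 0.13 and Bmp4 from -0.078 to 0.42.

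Between batches 5 members were called with all deposited reads, 1 at a mapping quality of at least 10, and 1 to 2 with a batch left out. The share of cells with any member was 53.4% with all reads, 38.8% at that mapping quality, 36.8% with the minimum of 1000 UMIs alone and 14.4% after thinning to 1000 UMIs, and ran from 38.7% (without Exp236) to 44.8% with a batch left out. The alternatives with reads of at least 25 nt, each position counted once and Smad7 without its pile, and all comparisons of antisense reads and of scGRO–seq with AGTuC in level, were chosen after seeing the data.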
